A study of Mus musculus with 4 samples.

Results

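Erythroid genes, 31 in number, were examined in open chromatin maps of mouse hematopoietic stem cells (HSCs). The genes were a named list of erythroid regulators, globins and their chaperone, enzymes of heme synthesis, iron carriers, membrane skeleton proteins, blood group antigens and red cell enzymes. Of the 31, 30 had an annotated gene model, out of 21755 protein-coding genes in all, and Ahsp, the chaperone of alpha-globin, was not analysed here. Every accessible region that overlapped the body of one of these genes or the 10 kb on each side was taken, which gave 73 regions out of 34046 near protein-coding genes.

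ATAC-seq, which uses the Tn5 transposase to tag open DNA, was run on HSCs sorted from the bone marrow of adult C57BL/6 mice. The labels give the sort as LSK CD150+CD34-CD48-, and the methods of the study give LSK CD150+CD48- with no CD34 gate. WT cells came from mice with floxed Med23 alleles and no cre, and KO cells from littermates that also carried Mx1-cre. Med23 is a subunit of the mediator complex, which links transcription factors to RNA polymerase II. Mx1-cre is driven by an interferon-inducible promoter that is also active outside the blood system, and deletion was induced with poly(I:C). Both groups carried the floxed alleles. Whether the WT mice used for ATAC-seq also received poly(I:C) is not given in the sources used here. The labels name 2 samples of each genotype, but both samples of a genotype point to the same list of accessible regions (peaks). The comparison was thus between 1 WT list and 1 KO list, with no spread between replicates and no test. In such bulk samples, fewer cells with an open site and a less open site in each cell cannot be told apart.

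Red cells arise from HSCs through megakaryocyte and erythroid progenitors. Erythropoietin and its receptor keep the late progenitors alive, and the transcription factors GATA1, TAL1 and KLF1 switch on the globins, the heme pathway and the membrane skeleton together. GATA factors bind the letters GATA preceded by A or T, often with a CTG of a TAL1 site a few bases before, and KLF1 binds CACCC boxes. Promoters and enhancers of later genes can be open in stem cells before the gene is used, which is called priming.

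There were 37919 WT peaks and 37639 KO peaks. The strength of a peak is given here as its pileup, the number of fragments or reads stacked at the summit, which was recovered from the deposited fold enrichment and p-value. The median pileup was 18 in WT and 19 in KO over all peaks. Read totals are unknown. A peak was assigned to the gene's own promoter when its summit lay within 1000 bp of an annotated start site of the gene, to the promoter of another gene when it lay within that distance of another start site, and was called distal otherwise. Among 9 markers of HSCs, the 5 genes Kit, Mecom, Hlf, Meis1 and Fgd5 had a promoter peak in both lists, and Ly6a, Slamf1, Procr and Hoxb5 had peaks of both lists in their windows but none at the promoter. Of 6 further surface markers of blood cells, Cd3e and Itgam had no promoter peak. The other 4 had one in both lists, with WT and KO pileups of 58 and 36 at Flt3, 30 and 37 at Cd34, 23 and 17 at Ptprc and 7 and 8 at Cd48. HSCs themselves carry CD45, the product of Ptprc, by which the study traced donor HSCs. The study also named Cd34 among genes that its HSCs expressed. Against this, the sort selected cells without CD48 and, by the labels, without CD34. Another HSC gate of the study selected cells without CD135, the product of Flt3. The part of contaminating cells in any result was not tested.

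The strongest distal sequences are shown first, because distal sites hold most of the differences between the lists described below. Each sequence is 200 bases of the mm10 reference centred on the summit, that of the stronger peak where both lists have one. Capitals mark a GATA word, which is AGATAA with either of A and G allowed as its last letter or TGATAA with the same choice, and the KLF letters CCNCNCCC, on either strand. The 6 distal regions with the highest summed pileup in both lists belonged to Epb41 (86), Zfpm1 (84), Ank1 (77), Klf1 (55), Car2 (53) and Hbb-bt (53), and the last 4 of these are printed. That of Epb41 overlaps an annotated UTR. The strongest distal regions in 1 list only follow, and then the Zfpm1 region with the largest KO to WT ratio, which was picked after its values were seen.
Ank1, intron, both lists (chr8:23028421-23028620, + strand): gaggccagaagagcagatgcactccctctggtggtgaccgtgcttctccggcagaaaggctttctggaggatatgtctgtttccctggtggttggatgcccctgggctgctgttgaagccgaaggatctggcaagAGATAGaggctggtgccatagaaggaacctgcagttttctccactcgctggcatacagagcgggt
Klf1, coding exon, both lists (chr8:84903119-84903318, + strand): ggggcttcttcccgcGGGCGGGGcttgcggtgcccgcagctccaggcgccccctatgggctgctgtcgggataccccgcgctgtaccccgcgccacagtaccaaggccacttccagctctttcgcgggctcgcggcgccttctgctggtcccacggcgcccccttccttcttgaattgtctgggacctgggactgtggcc
Car2, upstream, both lists (chr3:14880435-14880634, + strand): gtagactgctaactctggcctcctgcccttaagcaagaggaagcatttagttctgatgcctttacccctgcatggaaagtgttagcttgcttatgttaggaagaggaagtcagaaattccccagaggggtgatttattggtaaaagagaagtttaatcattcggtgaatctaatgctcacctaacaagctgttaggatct
Hbb-bt, downstream, both lists (chr7:103808991-103809190, + strand): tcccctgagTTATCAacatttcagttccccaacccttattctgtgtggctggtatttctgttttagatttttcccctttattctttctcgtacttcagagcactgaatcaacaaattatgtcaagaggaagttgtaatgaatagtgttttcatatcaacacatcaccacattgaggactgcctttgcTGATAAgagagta
Zfpm1, upstream, KO list only (chr8:122275098-122275297, + strand): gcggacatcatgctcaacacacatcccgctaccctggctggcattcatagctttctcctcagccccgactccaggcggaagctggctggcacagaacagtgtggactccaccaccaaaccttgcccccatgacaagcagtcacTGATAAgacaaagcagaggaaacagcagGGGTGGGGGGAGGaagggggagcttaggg
Epb41, intron, WT list only (chr4:132040290-132040489, + strand): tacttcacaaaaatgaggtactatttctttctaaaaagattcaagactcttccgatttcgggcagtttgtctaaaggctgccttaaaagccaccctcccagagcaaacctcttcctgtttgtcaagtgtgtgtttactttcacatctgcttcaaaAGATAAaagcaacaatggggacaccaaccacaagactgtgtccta
Urod, downstream, KO list only (chr4:116986917-116987116, + strand): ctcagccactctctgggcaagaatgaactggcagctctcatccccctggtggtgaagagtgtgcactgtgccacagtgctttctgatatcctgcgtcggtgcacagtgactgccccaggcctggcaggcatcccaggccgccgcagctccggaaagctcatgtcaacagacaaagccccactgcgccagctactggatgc
Zfpm1, intron, largest KO to WT ratio (chr8:122309317-122309516, + strand): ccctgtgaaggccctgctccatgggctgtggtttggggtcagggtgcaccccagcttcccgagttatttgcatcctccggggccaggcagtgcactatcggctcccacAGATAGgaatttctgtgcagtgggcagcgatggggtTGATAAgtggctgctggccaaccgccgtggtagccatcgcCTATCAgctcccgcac
The Zfpm1 region with the largest ratio held 3 GATA words. Its WT summit and that of the Ank1 region lay outside the printed bases. The Hbb-bt region held 2 GATA words, each with a CTG before it. The Klf1 and Ank1 regions held 1 marked word each, and the Car2 region and the Urod region held none.

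Of the 30 genes, 17 had an own-promoter peak in both lists, which is 56.7%, against 58.1% of all protein-coding genes. None had an own-promoter peak in 1 list only, against 5.76% of all protein-coding genes. The other 13 had no promoter peak in either list. For 6 of these, Hba-a1, Hbb-bs, Alas2, Slc4a1, Car1 and Rhd, no peak of either list lay in the whole window, against 22.5% of all genes. The remaining 7, Klf1, Hba-a2, Hbb-bt, Ermap, Rhag, Trim10 and Slc25a37, had a peak elsewhere in the window, and for Trim10 and Slc25a37 that peak was in the WT list only. Thus, with a peak at any annotated start site of a gene counted as open, membership in the open or closed set was the same in WT and KO cells for every gene. Single start sites could still differ. Ank1, Sptb, Nfe2, Zfpm1 and Kel each had a further own-promoter region in 1 list only. The share of such regions over all genes was not computed. The 17 open promoters had a median pileup of 26 in WT and 31 in KO, against 35 in both lists over the 12632 genes open in both.

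**Figure D1:**
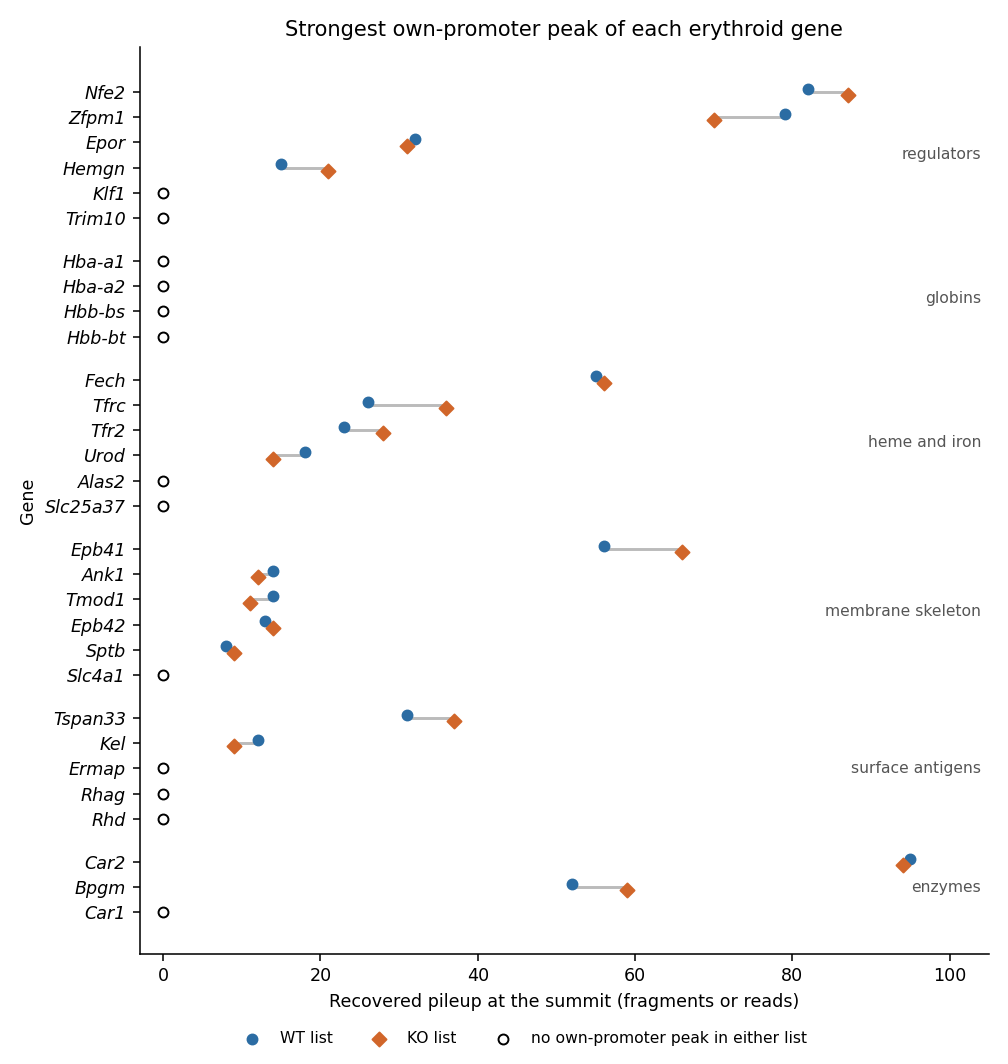
Pileup at the strongest own-promoter peak (x axis, fragments or reads at the summit) of the 30 erythroid genes (y axis, grouped by role) in the WT list (circles) and the KO list (diamonds), with open circles at 0 for the 13 genes with no promoter peak in either list. Values run from 8 at Sptb to 95 at Car2 in WT, and all 4 globin genes sit at 0.

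Among the regulators, 4 of 6 promoters were open in both lists. Nfe2, a bZIP factor of red cells and platelets, had pileups of 82 in WT and 87 in KO at its 5′ end. Zfpm1 (FOG1), the cofactor of GATA1, had 79 in WT and 70 in KO. Both values were above the 35 that was the median of all open promoters. Epor, the erythropoietin receptor, had 32 in WT and 31 in KO, at an annotated internal start 955 bp from the 5′ end of the gene. Hemgn, a nuclear protein of blood progenitors, had 15 in WT and 21 in KO, also at an internal start, 9245 bp from the 5′ end. Klf1, the main activator of the adult globin programme, had no promoter peak, but a peak of both lists lay in its coding exon 1291 bp downstream of the start (chromosome 8, 84902954 to 84903714), with pileups of 21 in WT and 34 in KO. Trim10, a tripartite motif protein needed for red cell maturation, had only a WT peak of pileup 10, which lay at the start of Trim15, its neighbour.

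None of the 4 globin promoters was open in either list. Hba-a1 and Hba-a2 encode alpha-globin and Hbb-bs and Hbb-bt encode adult beta-globin. The 300-base promoters of Hba-a1 and Hba-a2 share an unbroken run of 297 bases, so reads from either cannot be assigned to 1 copy, and how such reads were counted is not given in the sources used here. For the alpha genes, the absence of a peak is therefore uncertain. The promoters of Hbb-bs and Hbb-bt share no run longer than 14 bases. The window of Hba-a2 held a peak at the start of Hbq1a, a theta-globin gene, with pileups of 10 in WT and 13 in KO. The window of Hbb-bt held 2 regions of both lists. The stronger lay 4905 bp from the start, past the 3′ end of the gene (chromosome 7, 103808999 to 103809591), with 26 in WT and 27 in KO, and is the sequence with 2 GATA words printed above. The weaker had its KO summit, of pileup 18, in a coding exon, where Hbb-bs and Hbb-bt are near-identical copies. Its WT summit, of pileup 15, lay just past the 3′ end of the gene.

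Globin genes are controlled from far upstream, by enhancers inside Nprl3 for alpha-globin and by the locus control region for beta-globin, so the window was widened to 50 kb on each side. Upstream of Hba-a1, a peak at the 5′ end of Nprl3 15.88 kb away had pileups of 31 in WT and 29 in KO. At 18.21 kb, in an intron of Nprl3 (chromosome 11, 32265176 to 32265554), the WT list had a peak with pileup 29 and fold enrichment 6.53, and the KO list had none. At 44.9 kb, near an internal start of Nprl3, the values were 11 in WT and 14 in KO. Upstream of Hbb-bs, an intergenic region 33.06 kb away (chromosome 7, 103860913 to 103861869) had pileups of 31 and 26 in WT and KO (log2 ratio −0.17, 95% interval −0.98 to 0.63). A further region at 42.73 kb was in the WT list only, with pileup 14. Thus both globin loci had open sites in HSCs at a distance, while the adult globin promoters had no called peak. At the alpha-globin locus, the sites in both lists lay at or near starts of Nprl3 and Hbq1a. Those away from any start there were in the WT list only. The lists hold only called peaks, so the KO signal at the sites in the WT list only is unknown. The strongest site of each locus away from a start site is shown here, picked after its values were seen.
Nprl3 intron upstream of Hba-a1, WT list only (chr11:32265203-32265402, + strand): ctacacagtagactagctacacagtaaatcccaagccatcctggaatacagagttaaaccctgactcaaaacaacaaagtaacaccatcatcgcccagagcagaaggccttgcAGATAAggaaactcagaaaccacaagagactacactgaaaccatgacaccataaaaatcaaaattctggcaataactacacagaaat
Intergenic, upstream of Hbb-bs, both lists (chr7:103861060-103861259, + strand): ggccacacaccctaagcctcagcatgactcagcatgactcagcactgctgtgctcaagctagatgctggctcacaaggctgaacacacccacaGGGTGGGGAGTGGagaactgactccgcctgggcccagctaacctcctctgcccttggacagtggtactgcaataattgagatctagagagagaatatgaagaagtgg
The alpha-globin site held 1 GATA word and 1 match to TGANTCA, the core bound by NF-E2 and AP-1. The beta-globin site held no GATA word and 2 matches to TGANTCA, and its capitals mark overlapping matches to the KLF letters.

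**Figure D2:**
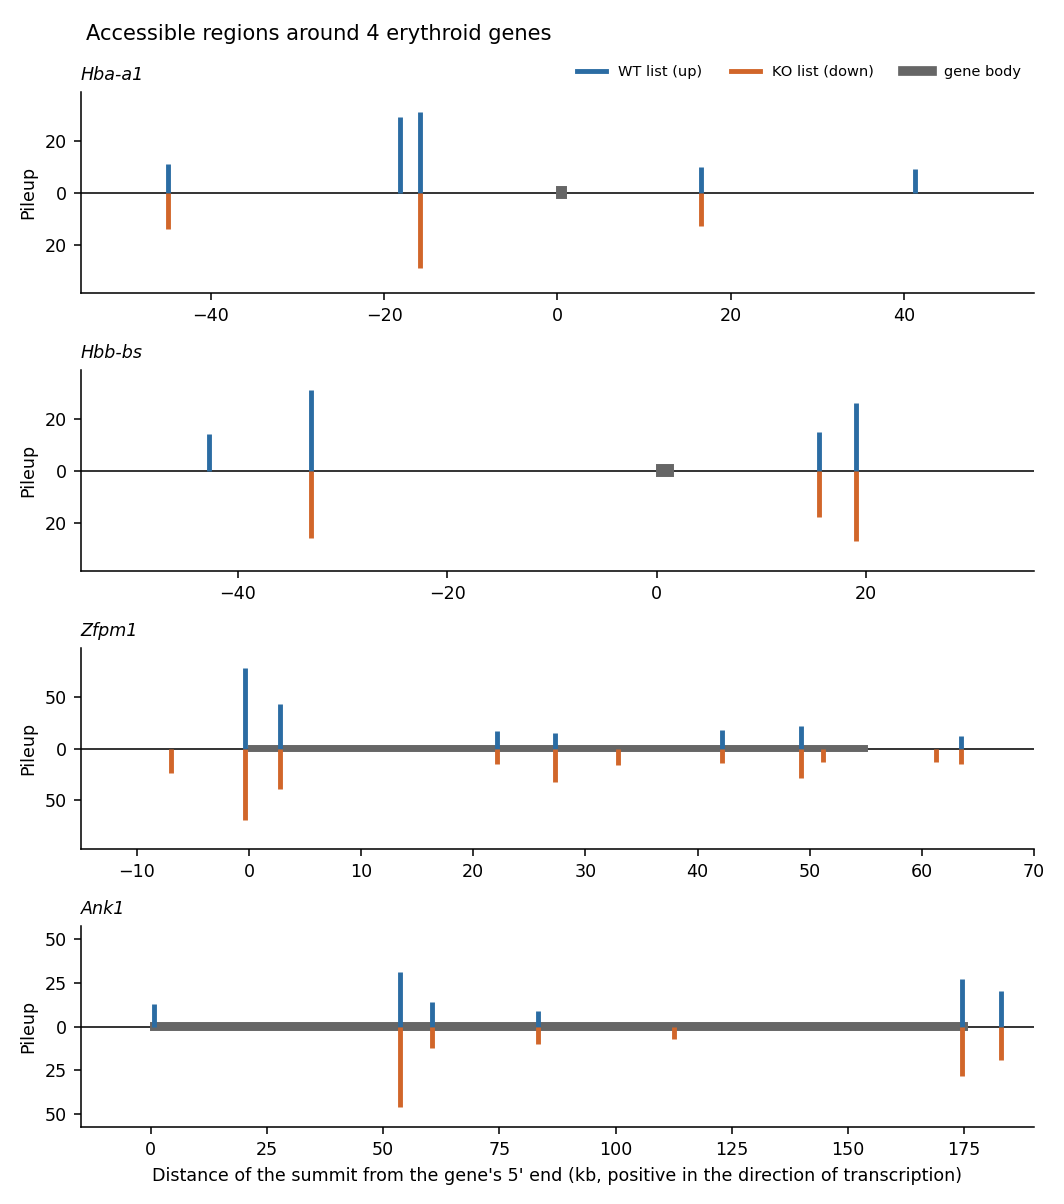
Pileup at the summit in the WT list (bars up) and the KO list (bars down) against the distance of the summit from the 5′ end of Hba-a1, Hbb-bs, Zfpm1 and Ank1 (x axis, kb), with the gene body as a grey bar. The globin panels show the widened window with no bar at the gene, and the Zfpm1 panel shows 4 bars of the KO list with no WT bar.

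Among the 6 genes of heme and iron, 4 had open promoters. Fech, which inserts iron into heme, had 55 in WT and 56 in KO. Tfrc, the transferrin receptor that nearly all dividing cells use, had 26 in WT and 36 in KO. Tfr2, a second transferrin receptor of liver and erythroid cells, had 23 in WT and 28 in KO. Urod, an enzyme of the middle of the heme pathway, had 18 in WT and 14 in KO at a promoter shared with Hectd3. Alas2, the erythroid form of the enzyme that starts heme synthesis, had no peak within 10 kb. The peak nearest to its 5′ end, 35.9 kb upstream in intergenic DNA, had 14 in WT and 17 in KO. A region past its 3′ end, at the starts of Apex2 and Pfkfb1, was nearer to the gene body and had 25 in both lists. Slc25a37 (mitoferrin-1), which brings iron into mitochondria, had only a weak distal WT peak, of pileup 9, beyond its 3′ end.

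Of the 6 genes of the membrane skeleton, 5 had open promoters, most of them weak. Epb41 (protein 4.1), which ties spectrin to actin, had 56 in WT and 66 in KO. Ank1 (ankyrin-1), which links spectrin to band 3, had 14 in WT and 12 in KO at an internal start 60487 bp into the gene. A second internal start, at 83384 bp, had 9 and 10. The 5′ end of Ank1 had a peak in the WT list only, of pileup 13. Tmod1, which caps actin filaments, had 14 in WT and 11 in KO. Epb42 (protein 4.2) had 13 and 14, and Sptb (beta-spectrin) had 8 and 9. Slc4a1 (band 3), the anion exchanger, had no peak in its window. The distal region with the highest summed pileup of the group lay 1531 bp upstream of Epb41 (chromosome 4, 132076400 to 132077690), with 44 in WT and 42 in KO. The next was in an intron of Ank1 (chromosome 8, 23027987 to 23028963), with pileups of 31 and 46 in WT and KO (log2 ratio 0.66, 95% interval −0.03 to 1.36).

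Among the 5 surface antigens, Tspan33, a tetraspanin of erythroid progenitors, had 31 in WT and 37 in KO at its promoter. Kel, the Kell blood group protease, had 12 in WT and 9 in KO. Rhag, the Rh-associated glycoprotein, had no promoter peak but 3 distal regions in its introns, of which 2 were in both lists (14 and 18, and 12 and 16, in WT and KO) and 1 in the KO list only (pileup 16). Rhd, the Rh blood group protein, had no peak within 10 kb, and its nearest was the promoter of Maco1 at 11.05 kb, with 59 in WT and 49 in KO. Ermap, the Scianna antigen, had peaks only at the starts of Zfp691 and Svbp. Of the 3 enzymes, Car2 (carbonic anhydrase 2), which many cell types use, had the highest promoter pileup of all 30 genes, 95 in WT and 94 in KO. Bpgm, which makes 2,3-bisphosphoglycerate, had 52 in WT and 59 in KO. Car1, the carbonic anhydrase of mature red cells, was the only gene with no peak even within 50 kb.

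The promoters were then compared by sequence. RefSeq promoters (GRCm38.p6, 250 bases before to 50 after the start) were found for 23 of the 30 genes. The following stretches end at the most upstream annotated start and show 3 genes with no promoter peak (Hba-a2, Hbb-bt, Alas2) and 3 with one in both lists (Kel, Tspan33, Bpgm). Each is 150 bases, or 101 for Bpgm, written 5′ to 3′ on the strand of the gene, with the same letters in capitals.
Hba-a2 (chr11:32296339-32296488, + strand): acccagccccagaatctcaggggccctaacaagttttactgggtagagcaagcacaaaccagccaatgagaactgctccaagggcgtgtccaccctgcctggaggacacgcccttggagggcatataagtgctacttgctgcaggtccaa
Hbb-bt (chr7:103813997-103814146, - strand): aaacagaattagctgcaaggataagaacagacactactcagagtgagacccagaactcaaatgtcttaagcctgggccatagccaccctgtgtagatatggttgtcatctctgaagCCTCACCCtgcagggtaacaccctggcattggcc
Alas2 (chrX:150547225-150547374, + strand): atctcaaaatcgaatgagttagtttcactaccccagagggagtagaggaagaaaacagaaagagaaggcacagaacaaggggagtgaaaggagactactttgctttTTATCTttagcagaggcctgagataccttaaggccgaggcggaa
Kel (chr6:41704340-41704489, - strand): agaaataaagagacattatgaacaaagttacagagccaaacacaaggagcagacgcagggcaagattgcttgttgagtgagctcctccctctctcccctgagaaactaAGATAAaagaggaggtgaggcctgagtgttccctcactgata
Tspan33 (chr6:29694064-29694213, + strand): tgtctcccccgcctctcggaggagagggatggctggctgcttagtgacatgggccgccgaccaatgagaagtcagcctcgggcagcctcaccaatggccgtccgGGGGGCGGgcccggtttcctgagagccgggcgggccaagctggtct
Bpgm (chr6:34476106-34476206, + strand): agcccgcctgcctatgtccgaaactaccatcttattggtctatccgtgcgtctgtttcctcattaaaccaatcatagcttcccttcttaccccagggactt
Kel and Alas2 each had a GATA word in the printed stretch, and Kel was open and Alas2 was not.

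Promoters rich in CpG, with an observed over expected ratio of at least 0.6 and at least 50% GC, were open in both lists in 7 of 7 erythroid genes (Zfpm1, Bpgm, Tfrc, Tspan33, Urod, Tmod1 and Sptb), against 88.3% of 7837 genes with such promoters. Other promoters were open in 6 of 16 (37.5%), namely Epb41, Epor, Tfr2, Hemgn, Epb42 and Kel, against 34.8% of 8596 genes. Within each class the erythroid share was near that of all genes. The split was chosen after the values were seen. At least 1 GATA word stood in 15 of 23 erythroid promoters (65.2%, 95% Wilson interval 44.9 to 81.2), against 25.8% of 16433 promoters. The interval treats the promoters as independent, though those of Hba-a1 and Hba-a2 are near-identical and both hold a GATA word. The sets were not matched by CpG class: 16 of the 23 were not CpG-rich, against 8596 of the 16433. Of the 7 CpG-rich erythroid promoters, Sptb alone held a GATA word. KLF letters stood in 15 of 23 (65.2%), against 57.5%. Of the 10 genes of this set with no promoter peak, 9 held a GATA word, and of the 13 open ones, 6 did. The 13 open ones included all 7 CpG-rich promoters. The part of promoter class in the GATA shares was not tested.

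**Figure D3:**
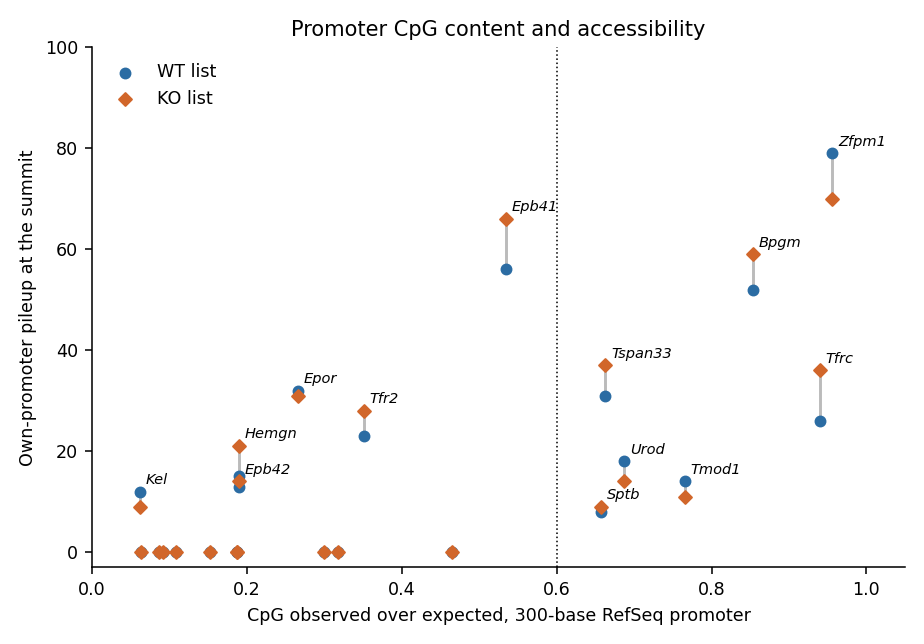
Own-promoter pileup (y axis) in the WT list (circles) and the KO list (diamonds) against the CpG observed over expected ratio of the 300-base RefSeq promoter (x axis) for 23 erythroid genes, with the dotted line at 0.6. All 7 genes to the right of the line have a promoter peak in both lists, and the 10 genes at a pileup of 0 lie to its left.

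The 73 regions fell into 24 at own promoters, 13 at promoters of other genes and 36 distal regions. Both lists held 53 of the 73, the WT list alone held 7 (9.59%), and the KO list alone held 13 (17.8%, 95% Wilson interval 10.7 to 28.1). Near all protein-coding genes the shares were 16.2% and 15.9%. Of the distal regions, 4 of 36 (11.1%) were in the WT list only and 10 of 36 (27.8%, interval 15.9 to 44.0) in the KO list only, against 23.4% and 23.2%. The intervals of the KO shares include the background. Without the regions of Zfpm1, 7 of 27 distal regions (25.9%) were in the KO list only. Regions in the WT list only had pileups of 7 to 19 (median 11) and those in the KO list only 7 to 24 (median 16), against medians of 10 and 11 over all such regions near genes. The distal peaks of these genes had a median pileup of 16.5 in WT and 18 in KO, against 14 and 16 over all distal regions near genes.

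**Figure D4:**
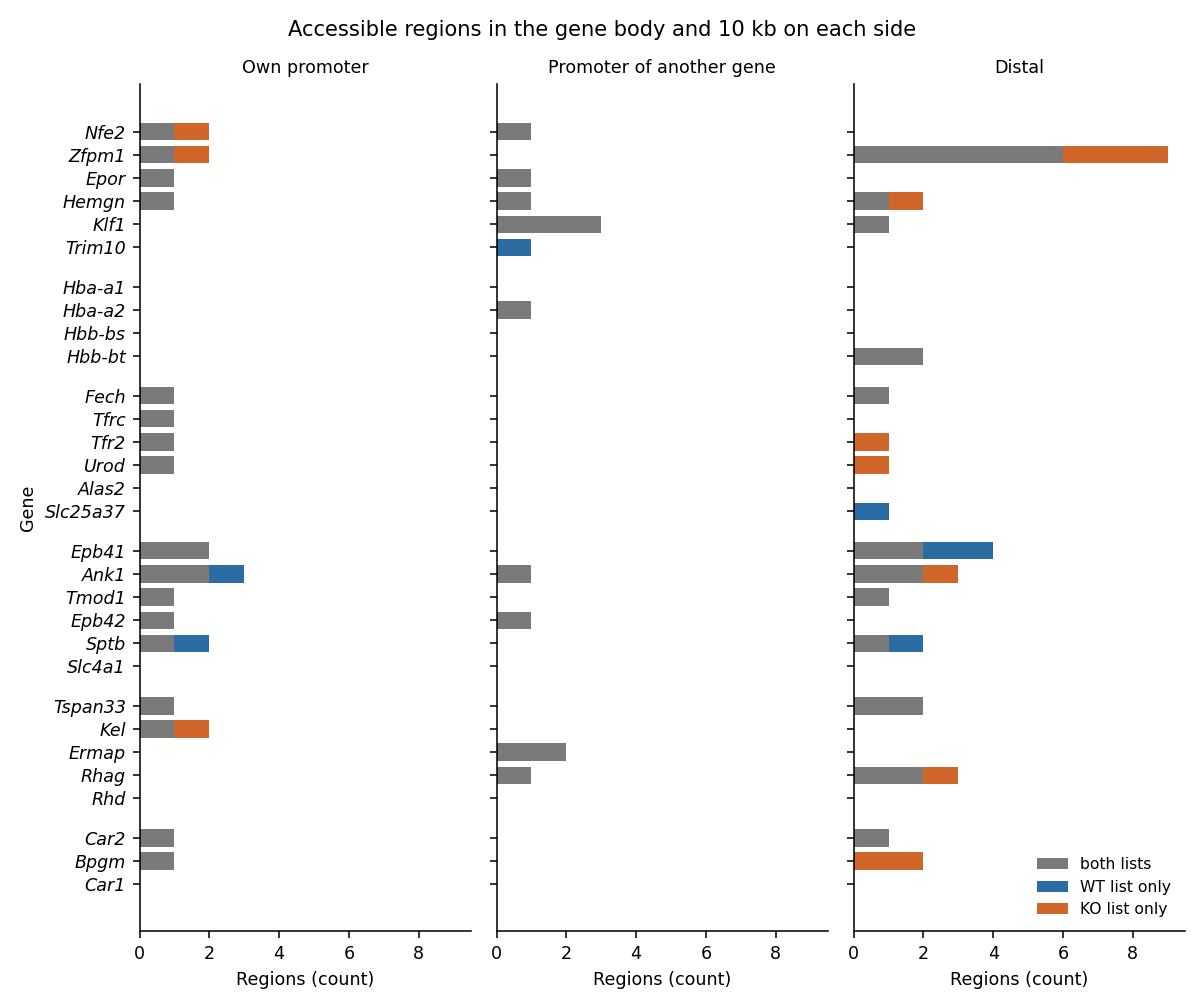
Number of accessible regions (x axis) at the own promoter, at promoters of other genes and at distal sites in the window of each erythroid gene (y axis, same order by role), in both lists (grey), the WT list only (blue) or the KO list only (orange). Zfpm1 has 9 distal regions, 3 of them in the KO list only, and no other gene has more than 4.

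Zfpm1 held 11 of the 73 regions. Besides its promoter, it had 9 distal regions, 6 in both lists and 3 in the KO list only, and 1 more region in the KO list only at an internal start. The strongest in the KO list only lay 6943 bp upstream of the gene (chromosome 8, 122275031 to 122275787), with pileup 24. The other 2 distal ones had pileups of 16 and 13, and the internal start had 13. Peak coverage of the Zfpm1 window was 3793 bp for WT cells and 7883 bp for KO cells, a difference of 4090 bp. Over all 30 genes, coverage came to 42535 bp for WT and 46110 bp for KO, and without Zfpm1 the difference was −515 bp. Covered bases were higher in KO for 15 genes and lower for 9. The same count over all protein-coding genes was not made. The whole lists covered 27.24 Mb in WT and 26.84 Mb in KO. The largest loss was at Epb41, whose covered bases went from 4476 to 2927 bp. Epb41 had 2 distal regions in the WT list only, of pileup 19 (chromosome 4, 132040157 to 132040555) and 11.

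The other regions in the KO list only were spread over 8 genes. Bpgm had 2 distal ones, in an intron and downstream, with pileups of 18 and 15. Urod had 1 of pileup 19 in a coding exon of Zswim5, and Tfr2 had 1 of pileup 16 at Mospd3, its neighbour. Rhag, Hemgn and Ank1 had 1 distal region each, of pileup 16, 9 and 7. Nfe2 and Kel each had an additional own-promoter region in KO, with pileups of 20 and 8. In the WT list only, Sptb had a distal region of pileup 16 and an own-promoter region of pileup 7, both in introns.

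In regions with 1 peak of each list, each pileup was divided by the genome-wide background of its list and KO was set over WT, on the log2 scale, with an exact 95% binomial interval. The interval covers counting error only. The WT and KO summits of a region can lie apart, and they lay within 100 bp in 34 of the 53 shared erythroid regions. The ratio was taken in all 53. The 53 shared erythroid regions had a median of 0.14 and ranged from −0.91 to 1.22, against 0.17 over all 28909 shared regions. The median was 0.17 at the 19 own-promoter regions, 0.01 at the 12 promoters of other genes and 0.30 at the 22 distal regions. Over all distal regions near genes it was 0.22. A region was called when it lay more than 1.5-fold from the median of all regions. Of the 53, 4 were called higher in KO, against 6.74% of all shared regions near genes, and 5 lower, against 7.78%. None of the 19 own-promoter regions was called, where 11.6% of 12963 promoter regions near genes were called in either direction.

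**Figure D5:**
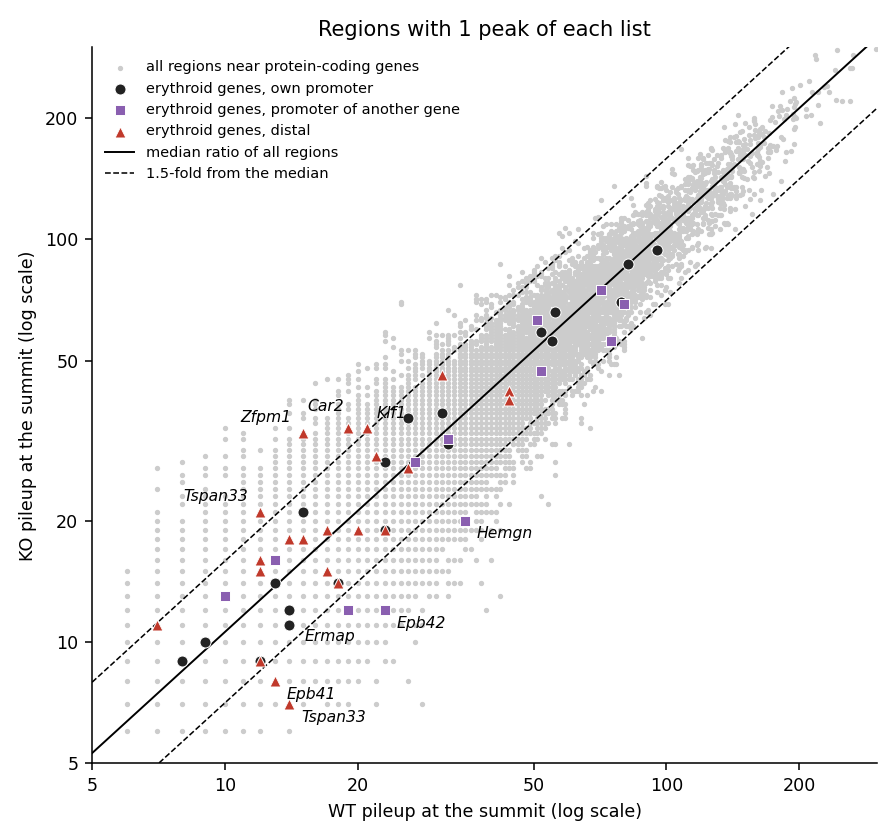
Pileup in KO (y axis, log scale) against WT (x axis, log scale) in regions with 1 peak of each list, for own-promoter (circles), other-promoter (squares) and distal (triangles) regions of the erythroid genes over all regions near protein-coding genes (grey), with the median ratio as a solid line and 1.5-fold on each side dashed. The 4 labelled regions above and 5 below the dashed lines are those called, and the circles lie between the lines.

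The 4 regions called higher were distal, 4 of 22 distal regions, where 10.7% of 9697 distal regions near genes were called higher and 3.77% of promoter regions. The intronic Zfpm1 region 27276 bp into the gene (chromosome 8, 122309155 to 122309828) went from 15 in WT to 33 in KO, a log2 ratio of 1.22 (0.30 to 2.21). Its WT summit, at 122309550, lay apart from its KO summit, at 122309417. The region 5738 bp upstream of Car2 (chromosome 3, 14880348 to 14880764) went from 19 to 34, a ratio of 0.93 (0.07 to 1.82). An intron of Tspan33 (chromosome 6, 29700934 to 29701593) went from 12 to 21, a ratio of 0.89 (−0.20 to 2.05). The coding exon of Klf1 went from 21 to 34, a ratio of 0.78 (−0.05 to 1.64). Only the Zfpm1 interval lay wholly above the median of all regions, and those of Zfpm1 and Car2 left out 0.

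Of the 5 regions called lower, 3 lay at promoters of neighbouring genes, out of 12 such regions, where 7.86% of promoter regions were called lower. These were Ccndbp1 near Epb42 (23 to 12, log2 ratio −0.85, interval −1.99 to 0.21), Trmo near Hemgn (35 to 20, −0.72, −1.59 to 0.11) and Svbp near Ermap (19 to 12, −0.58, −1.75 to 0.54). The other 2, of 22, were distal, where 7.66% of distal regions were called lower, 1 downstream of Tspan33 (14 to 7, −0.91, −2.46 to 0.49) and 1 in an intron of Epb41 (13 to 8, −0.61, −2.09 to 0.77). In these 2 regions the WT and KO summits lay more than 100 bp apart. The interval of the Trmo region lay wholly below the median of all regions, and all 5 intervals included 0. Tspan33 thus had 1 distal region on each side. Of the 53 intervals, 2 left out the median of all regions, with no adjustment for their number. The same count over all shared regions was not made.

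The letters of blood transcription factors were counted in 200 bases around the stronger summit of each of the 36 distal regions, 9 of which belong to Zfpm1. GATA words stood in 12 of 36 (33.3%, 95% Wilson interval 20.2 to 49.7), against 28.3% of 18394 distal regions near genes. CTG followed after 7 to 9 bases by GATA, which can overlap a GATA word, stood in 7 of 36 (19.4%, 9.75 to 35.0), against 7.73%. KLF letters stood in 14 of 36 (38.9%, 24.8 to 55.1), against 22.9%. TGANTCA stood in 4 of 36 (11.1%), against 10.0%, and GAGGAAGT, bound by the myeloid factor PU.1, in 5 of 36 (13.9%), against 8.75%. For CTG with GATA and for KLF, the share of all regions lay below the interval of the erythroid genes. The intervals treat the regions as independent, though several share a gene, and were not adjusted for the number of motifs. The erythroid distal windows were also richer in GC, with a median of 54.75% against 49.5%. The part of GC in the motif shares was not tested. Without Zfpm1, the shares were 18.5% (8.18 to 36.7) for CTG with GATA and 33.3% (18.6 to 52.2) for KLF, and the KLF interval then included the share of all regions.

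Other genes of the lineages were measured the same way. Of 26 further erythroid genes, 19 (73.1%) had a promoter peak in both lists, 0 had one in 1 list only and 4 had no peak in the window. Tal1, the partner of GATA1, had 47 in WT and 52 in KO. Lmo2, of the same complex, had 51 in WT and 36 in KO. Cpox, Ppox, Alad and Uros, of the heme pathway, were open in both lists, with 27 to 85 in WT and 25 to 94 in KO. Gata1 itself had no peak in its window, nor did Hbb-bh1, Hbq1b and Add2. The promoter was open in both lists in 11 of 19 megakaryocyte genes (57.9%), 3 of 20 myeloid genes (15.0%) and 5 of 20 lymphoid genes (25.0%), with no test between the lists of genes.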

How the data were processed

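ATAC-seq libraries of sorted HSCs were processed by the authors with trim_galore, Bowtie2 (mm10), Picard for duplicates and mitochondrial reads, and MACS2 without a fragment model. Versions are not given in the sources used here. Each deposited peak list gives the authors' fold enrichment (a ratio of summit pileup to local background), their −log10 p and −log10 q values, a display score and the summit. The deposited score was not used. Separate deposited summit lists held the same summits and −log10 q values.

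The members and all gene lists were chosen with earlier results of these data known. Pileup and local background were solved from the fold enrichment and −log10 p (Python 3.11.15, scipy 1.17.1). A whole-number pileup matched within 0.001 for 99.99% of peaks. On simulated data, 99.98% of pileups were recovered over 4999 regions. The genome-wide background was the median of the 1000 lowest local backgrounds (WT 1.19, KO 1.13). Peaks on the autosomes and chromosome X (37887 WT, 37615 KO) were merged into regions where they overlapped by at least 1 bp. Annotation was GENCODE M21, sequence GRCm38.p6, on which 0 peaks lay beyond a chromosome end. All 30 analysed genes are named. Distal sequences were chosen by summed pileup, leaving out that of Epb41 for its UTR, and the 6 promoter stretches as examples with and without a peak, both with values known. Thresholds, windows and scales were varied. Some genes of these lists and 1 further sequence are not reported here.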

Additional observations from a re-analysis of the deposited data

How the results depend on the processing

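No paired analysis was possible because both samples of a genotype point to the same list, and for the same reason no sample could be left out. The lists hold called peaks only, so a gene without a peak may have signal under the threshold. Own-promoter peaks in both lists fell from 17 genes to 10 at a −log10 q of at least 10. Genes with no peak in the window went from 6 to 11 at that threshold and to 1 at 50 kb. Regions in both lists, 53, came to 25 at that threshold, 119 at 50 kb and 34 with summits within 100 bp. Regions in the WT list only, 7, came to 2 at that threshold, 4 at 2 kb, 26 at 50 kb, 15 where 50% of each peak had to overlap and 26 with summits within 100 bp. Regions in the KO list only, 13, came to 12 at that threshold, 7 at 2 kb, 25 at 50 kb, 21 with the 50% overlap and 32 with summits within 100 bp. For the counts of genes and regions at these settings, no share over all genes or regions was computed. Over all peaks, the median fold enrichment was 6.38 in WT and 7.44 in KO. At a −log10 q of at least 5, 14 genes were open in both lists and 2, Kel and Tmod1, in the WT list only. With promoters of 500 bp, Urod was open in the WT list only. With 2500 bp, Klf1 and Hbb-bt became open in both lists and Trim10 in the WT list. The GATA share of distal regions was 16.7% in 100 bp (all regions 14.4%) and 38.9% in 400 bp, where all regions had 49.3%, so its order against all regions turned. CTG with GATA stood in 5.56% at 100 bp (all regions 3.89%) and 22.2% at 400 bp (13.9%), and KLF in 22.2% (12.9%) and 52.8% (37.4%), windows that for these letters were added after seeing the data. The median log2 ratio of the erythroid regions was 0.05 on raw pileups and 0.22 on fold enrichments, where all shared regions had 0.08 and 0.26. The 9 called regions kept their direction on both scales.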
